A study of Homo sapiens with 4 samples.

Results

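The clustered protocadherin genes lie in 3 neighbouring groups on chromosome 5, named the alpha (PCDHA), beta (PCDHB) and gamma (PCDHG) clusters. The members described here are the protein-coding genes of the GENCODE annotation whose symbols start with PCDHA, PCDHB or PCDHG within 800001 bases of that chromosome (genome build hg19) that starts before PCDHA1 and ends after the last gamma exon. There are 53 of them among 20163 protein-coding genes, of which 15 are in the alpha, 16 in the beta and 22 in the gamma cluster. Acetylation of lysine 27 of histone H3 (H3K27ac), a mark of active promoters and enhancers, was profiled by ChIP-seq in 4 established cancer cell lines with 1 library each. COLO-205 is a colon cancer line and was kept in RPMI with FBS, whereas DU-145 is a prostate cancer line and was kept in Eagle minimal essential medium with FBS. OVCAR-3 and SKOV-3 are ovarian cancer lines, the first kept in RPMI and the second in McCoy’s medium, both also with FBS. No treatment is given for any of them, and all 4 were harvested near confluence and were precipitated with the same antibody (ab4729). The study asked whether predicted gain-of-function mutations fall in active chromatin, and the protocadherin clusters were not named among its questions.

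Clustered protocadherins are cadherin-type adhesion proteins of the cell surface, best known in the nervous system, where single neurons express different sets of them and recognise their own branches by homophilic contacts. In the alpha and gamma clusters each variable first exon has its own promoter and encodes the outer, membrane-spanning and proximal inner part of one protein, and is spliced to constant exons that all members of that cluster share. The beta genes have no constant exons and each is a single-exon gene. Most variable promoters carry a short conserved element around the letters CGCT, known as the conserved sequence element, next to which CTCF and cohesin are known to act in promoter choice. The last genes of the alpha and gamma clusters (PCDHAC1, PCDHAC2, PCDHGC3, PCDHGC4 and PCDHGC5), called C-type, are known to be expressed more evenly between neurons than the others. In tumours, the clusters are known for DNA methylation over long stretches.

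The letters CGCT and their surroundings are shown first because most member promoters hold them and many of the neighbouring letters differ between the clusters. Each site was located by these 4 letters alone, so a match need not be the conserved element. The lines of PCDHA13, PCDHAC1 and PCDHGC4 hold none of the longer cluster words given after the list. Each line gives 30 bases on the plus strand, the coding strand of every member, read from GRCh37 (the same build as hg19), with the box CGCT in capitals. From the alpha cluster, PCDHA3, PCDHA12 and PCDHA13 had a promoter peak in at least 1 line and PCDHA8 had none. From the beta cluster PCDHB2 had one and PCDHB13 none, and from the gamma cluster PCDHGA3, PCDHGA8 and PCDHGB2 had one and PCDHGA1 none. PCDHAC1 and PCDHGC4 are C-type genes with a peak.
PCDHA3 (chr5:140180583-140180612): gccacatgatgtCGCTgtccaccacaaggt
PCDHA12 (chr5:140254833-140254862): gtcacatgatgtCGCTctacactcagaagg
PCDHA13 (chr5:140261651-140261680): tgcgcatggtgtCGCTcttcactgagaacg
PCDHA8 (chr5:140220719-140220748): gccacatgatgtCGCTgtctaccaagaagt
PCDHB2 (chr5:140474133-140474162): gacgcggggtggCGCTgcagccttagaagt
PCDHB13 (chr5:140593441-140593470): gacgcgtggtggCGCTgcaggataagaagg
PCDHGA3 (chr5:140723338-140723367): gcctcttagtgtCGCTgttgaccactcaag
PCDHGA8 (chr5:140772139-140772168): gactgtaagcgcCGCTgttcacctactgga
PCDHGB2 (chr5:140739492-140739521): acctctgagcgtCGCTgttggtcaaaagaa
PCDHGA1 (chr5:140709974-140710003): gactgtgggcgcCGCTgttcactaatctgg
PCDHAC1 (chr5:140305809-140305838): agaaggtgtggtCGCTcacgttcaccgtcc
PCDHGC4 (chr5:140864523-140864552): gagcccgggagcCGCTgtctgccaatcggg

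The box stood within 100 bases before the main transcript start in 47 of the 53 members, at a median of −57 bases from it. PCDHA7, PCDHA9, PCDHB6, PCDHB8, PCDHGA12 and PCDHGC5 had no CGCT there. Counted before the most upstream start of each gene, 84.9% of members held the box against 33.7% of the 19812 protein-coding promoters that could be read. Longer words around the box differed between the clusters. ATGTCGCT was found in 10 of 15 alpha, no beta and no gamma promoters, GGTGGCGCT in 14 of 16 beta promoters and in none of the others, and CGCTGTT in 13 of 22 gamma, 1 alpha and 1 beta promoter. These words were chosen from the sequences above and searched on both strands of the 300 bases from 250 before to 50 after the start. They occur in 0.283%, 0.651% and 2.60% of all protein-coding promoters. The box did not separate marked from unmarked genes, since 82.8% of the 29 members with a peak in any line and 87.5% of the 24 without one held it.

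The member promoters were poor in GC before the start and richer after it. In the same 300 bases the median GC content was 39.3% for members and 61.7% for all protein-coding genes, and 4 of the 53 members (7.55%) met the criteria of a CpG-rich promoter (GC of at least 50% and an observed-to-expected CpG ratio of at least 0.6) against 59.7% of all genes. From base 51 to base 350 after the main start, where the coding sequence of the variable exon begins, the median GC content was 54.7%, and it was higher than before the start in 51 of 53 members. The observed-to-expected CpG ratio changed less, from a median of 0.593 to 0.639, and in the beta cluster it was lower after the start (0.452 against 0.631). Both exact letter patterns searched for CTCF-type sites, on either strand, were less frequent in members than among all promoters of this length. CCCTC was in 30.2% of members and 75.5% of all promoters, and a CTCF core motif was in 1 member (PCDHB9, 1.89%) and in 12.6% of all promoters. A match describes letters only, and no binding was measured. The patterns are exact and the windows differ in GC content, so these shares do not show fewer CTCF sites in members. The 1 core match, in PCDHB9, ends on the first letter of the CGCT box of that gene.

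The libraries differed in yield, which bears on every count below. The deposited lists held between 14001 (SKOV-3) and 85576 (COLO-205) peaks, and the depth, recovered from the deposited fold enrichments and −log10 p values, was between 22400000 and 36000000 ChIP tags. The number of tags at a peak's summit was recovered in the same way. The −log10 q given with each peak is the peak caller's significance after correction for multiple testing, so that a higher value is a clearer peak. Promoter peaks at markers of the labelled tissues were found at 5 of 7 colon genes in COLO-205 (CDX2 among them), at 6 of 6 ovarian genes in OVCAR-3 and at 2 of 6 in SKOV-3, beside 51.1%, 60.5% and 31.6% of all genes. COLO-205 also had promoter peaks at 4 of the 6 ovarian genes and DU-145 at 3, and both DU-145 and OVCAR-3 had them at 2 of the 7 colon genes (59.8% of all genes were marked in DU-145). Lists this short and shares this near the background do not settle the identity of a line. Without replicates no difference between lines can be tested. Depth, precipitation yield, DNA copy number and cell identity cannot be told apart by these lists, and differences are given as counts beside the share of all genes in the same library.

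A member was called marked where a deposited peak overlapped the 1 kb either side of any of its transcript starts. COLO-205 marked 21 of the 53 members (39.6%, against 51.1% of all protein-coding genes), DU-145 14 (26.4% against 59.8%), SKOV-3 3 (5.66% against 31.6%) and OVCAR-3 1 (1.89% against 60.5%). In each line the share of members was thus below that of all genes, by the widest margin in OVCAR-3, the line with the highest share of all genes marked. Against genes with a CpG-rich promoter, of which OVCAR-3 marked 78.0%, DU-145 77.9%, COLO-205 64.3% and SKOV-3 42.9%, the margin was wider. Most members have no such promoter, and of the 7994 genes without one (members included) OVCAR-3 marked 35.0%, DU-145 33.2%, COLO-205 32.3% and SKOV-3 15.2%. Of the 49 members without a CpG-rich promoter, COLO-205 marked 18 (36.7%), DU-145 12 (24.5%), SKOV-3 3 (6.12%) and OVCAR-3 none. Set beside all genes without a CpG-rich promoter, COLO-205 was thus near the background, DU-145 below it by less than before, and SKOV-3 and OVCAR-3 well below it. These genes were not further matched to the members in GC content. At a −log10 q of at least 10, COLO-205 marked 8 members (15.1%) beside 31.7% of all genes. When each list was reduced to its 14001 peaks with the highest −log10 q, the number in the shortest list, COLO-205 kept 2 members beside 21.8% of all genes, DU-145 kept 5 beside 37.8%, OVCAR-3 none beside 37.9% and SKOV-3 3 beside 31.6%. The first place of COLO-205 in number of marked members therefore rests on its weaker peaks.

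**Figure D1:**
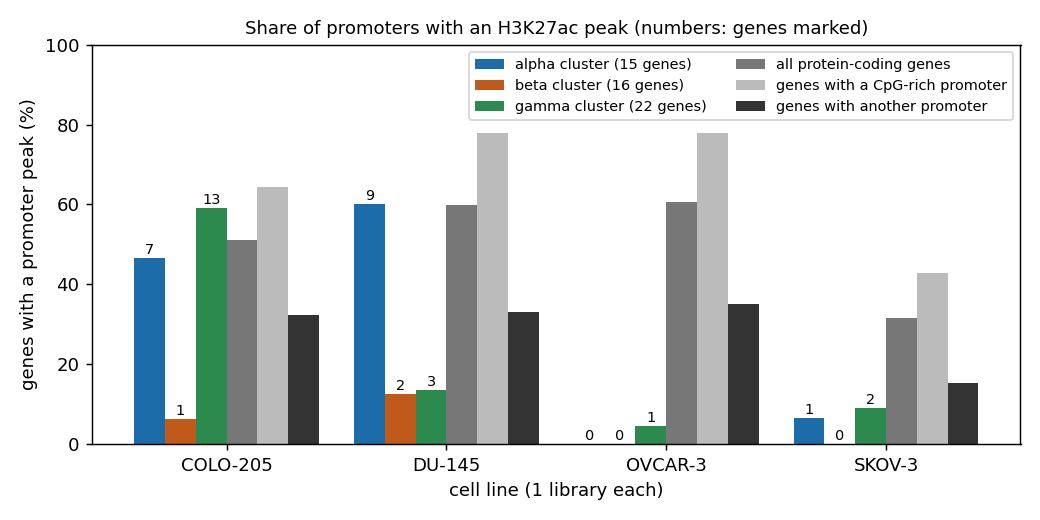
Share of genes with an H3K27ac promoter peak (%, vertical axis) in each cell line, for the alpha, beta and gamma clusters, for all protein-coding genes, for genes with a CpG-rich promoter and for genes with another promoter, with the number of marked members above the coloured bars. The alpha and gamma bars of COLO-205 (7 and 13 genes) and the alpha bar of DU-145 (9 genes) stand near the grey bar of all genes and above the dark bar of genes without a CpG-rich promoter, and all other cluster bars stand below both.

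Which members were marked differed from line to line. No member was marked in all 4 lines, although 25.2% of all protein-coding genes were. At least 3 lines marked PCDHGB2 and PCDHGC3 (2 of 53, against 43.2% of all genes), and 8 members were marked in at least 2 lines (59.6% of all genes). Another 21 members were marked in exactly 1 line, which makes 29 of 53 with any mark against 75.0% of all genes. The remaining 24 were marked in none, where the share of all genes was 25.0%. They were 3 adjacent alpha genes (PCDHA8, PCDHA9 and PCDHA10), 13 beta genes and 8 gamma genes. COLO-205 and DU-145 shared 6 marked members, 28.6% of those of COLO-205 and 42.9% of those of DU-145, where over all genes they shared 80.8% and 69.0%.

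**Figure D2:**
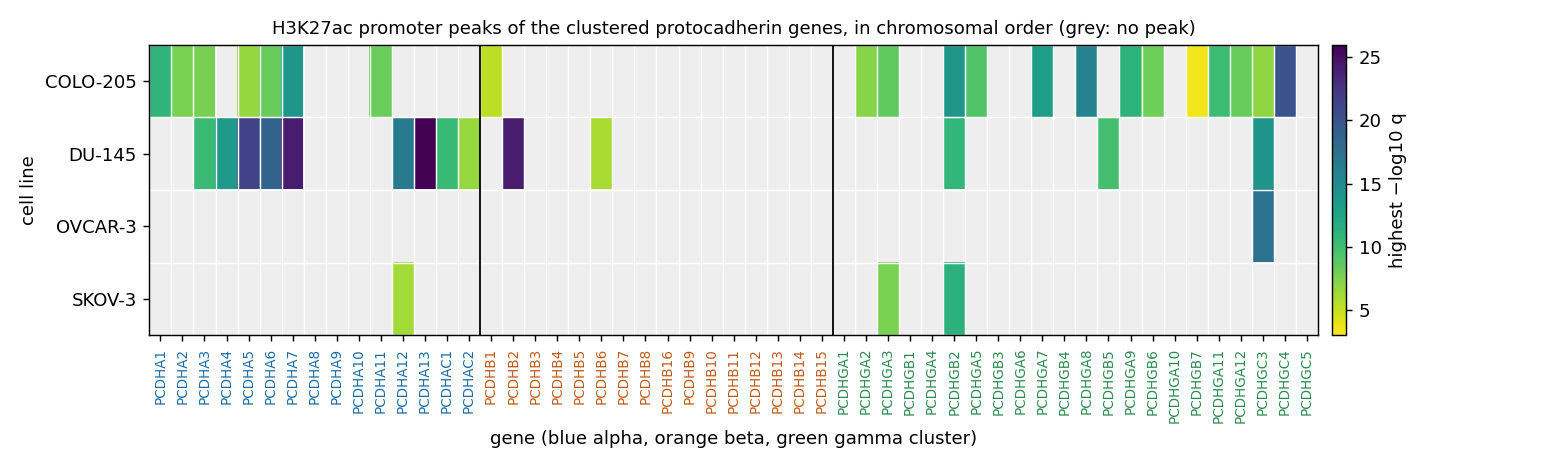
Matrix of the 53 members in chromosomal order (horizontal axis) and the 4 cell lines (vertical axis), coloured by the highest −log10 q among the promoter peaks and grey where no peak was listed. Marked alpha genes run in blocks from PCDHA3 to PCDHA7 and from PCDHA12 to PCDHAC2 in DU-145, gamma genes are marked in COLO-205 with gaps of 1 or 2 genes, and the beta cluster is almost empty.

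The alpha cluster, whose proteins share an inner domain encoded by the constant exons, was marked at 7 of 15 members in COLO-205 and 9 of 15 in DU-145, with 1 in SKOV-3 and none in OVCAR-3. The shares in COLO-205 (46.7%) and DU-145 (60.0%) were near those of all genes (51.1% and 59.8%). SKOV-3 marked 6.67% of the cluster beside 31.6% of all genes, and OVCAR-3 marked 60.5% of all genes. PCDHA3, PCDHA5, PCDHA6 and PCDHA7 were marked in both COLO-205 and DU-145. PCDHA1, PCDHA2 and PCDHA11 were marked in COLO-205 alone, and PCDHA4, PCDHA13, PCDHAC1 and PCDHAC2 in DU-145 alone. The strongest alpha peak of COLO-205 was at PCDHA7 (chr5:140213982-140214301), with a 6.53-fold enrichment over the local background and a −log10 q of 13.8. At the same promoter DU-145 had a peak of 8.52-fold and −log10 q 24.2 (chr5:140213943-140214335). In tags at the summit, PCDHA7 had 28 in COLO-205 and 40 in DU-145, that is 0.939 (exact Poisson 95% interval 0.624 to 1.36) and 1.11 (0.793 to 1.51) per 1000000 ChIP tags. These intervals cover counting error only. They overlap, but overlap here and below is no test of equal height, and differences in height were not tested. OVCAR-3 and SKOV-3 listed no peak at PCDHA7.

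PCDHA13 carried the highest −log10 q of any member in DU-145, 25.8, with 46 tags at a 7.97-fold enrichment (chr5:140261785-140262338), and no peak in the other 3 lines. The neighbouring PCDHA12 was marked in DU-145 (6.52-fold, −log10 q 16.6, 34 tags) and, more weakly in −log10 q, in SKOV-3 (5.25-fold, −log10 q 6.17, 15 tags). Relative to the depth of each library PCDHA12 had 0.943 (0.653 to 1.32) and 0.670 (0.375 to 1.10) tags per 1000000, with overlapping intervals. The C-type alpha genes had a lower fold in DU-145 than these. PCDHAC1 had the widest single promoter peak of all members as deposited, without merging of neighbours, 1061 bases at 3.66-fold and −log10 q 10.5. PCDHAC2 had a pair of adjacent peaks, one of 248 bases at 2.96-fold and −log10 q 6.51 and one of 540 bases at 2.82-fold and −log10 q 6.32. Summit tags at PCDHAC1 and PCDHAC2 were 42 and 36, close to the 40 at PCDHA7, over a local background of 10.7 and 11.5 tags against 3.81 at PCDHA7, so their lower fold goes with a higher background.

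Of the 16 beta genes, which encode adhesion proteins without the constant inner domain, 13 were marked in no line. Over all protein-coding genes 25.0% were marked in none. The 3 other beta genes were each marked in 1 line. COLO-205 thus marked 6.25% of the cluster and DU-145 12.5%, beside 51.1% and 59.8% of all genes. PCDHB2 had in DU-145 the highest fold of any member in any line, 9.05 (chr5:140474114-140474701, −log10 q 24.3, 38 tags). PCDHB6 was marked in DU-145 at 4.04-fold (−log10 q 5.93) and PCDHB1 in COLO-205 at 3.57-fold (−log10 q 5.30), the latter with its summit 694 bases after the start. Over the whole stretch from PCDHB1 to PCDHB15, OVCAR-3 and SKOV-3 had no peak of any kind, COLO-205 had 9 and DU-145 6.

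The gamma cluster was marked at 13 of 22 members in COLO-205, 3 in DU-145, 2 in SKOV-3 and 1 in OVCAR-3. In DU-145, SKOV-3 and OVCAR-3 that was 13.6%, 9.09% and 4.55%, beside 59.8%, 31.6% and 60.5% of all genes. The share in COLO-205 (59.1%) was near that of all genes (51.1%), as was that of the alpha cluster in DU-145 (60.0% against 59.8%). At a −log10 q of at least 10, 6 gamma members remained in COLO-205 (PCDHGB2, PCDHGA7, PCDHGA8, PCDHGA9, PCDHGA11 and PCDHGC4), which is 27.3% of the cluster beside 31.7% of all genes. The leading gamma promoters of COLO-205 were those of the C-type gene PCDHGC4 (7.36-fold, −log10 q 20.1, 38 tags, chr5:140864414-140864769) and of PCDHGA8 (6.32-fold, −log10 q 15.8, 34 tags). These were the 2 that remained at the reduced number of peaks. PCDHGC4 was not marked in the other 3 lines. The weakest was PCDHGB7 at 2.95-fold and −log10 q 3.49 with 18 tags, close to the authors' q threshold of 0.001.

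PCDHGB2 was the one promoter of its own first exon marked in 3 lines, and its peaks overlapped each other. Its enrichment was 6.53-fold in COLO-205 (28 tags, −log10 q 13.8), 4.64-fold in DU-145 (31 tags, −log10 q 10.7) and 6.98-fold in SKOV-3 (21 tags, −log10 q 11.2). Per 1000000 tags the summits were 0.939 (0.624 to 1.36), 0.860 (0.584 to 1.22) and 0.938 (0.580 to 1.43), so that the 3 lines lay within counting error of each other. PCDHGA3 gave 0.671 (0.410 to 1.04) in COLO-205 and 0.670 (0.375 to 1.10) in SKOV-3 and had no peak in DU-145 or OVCAR-3. PCDHGA3 and PCDHGB2 were the gamma genes marked in SKOV-3, and both hold CGCTGTT in the sequences above, as does the unmarked PCDHGA1.

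**Figure D3:**
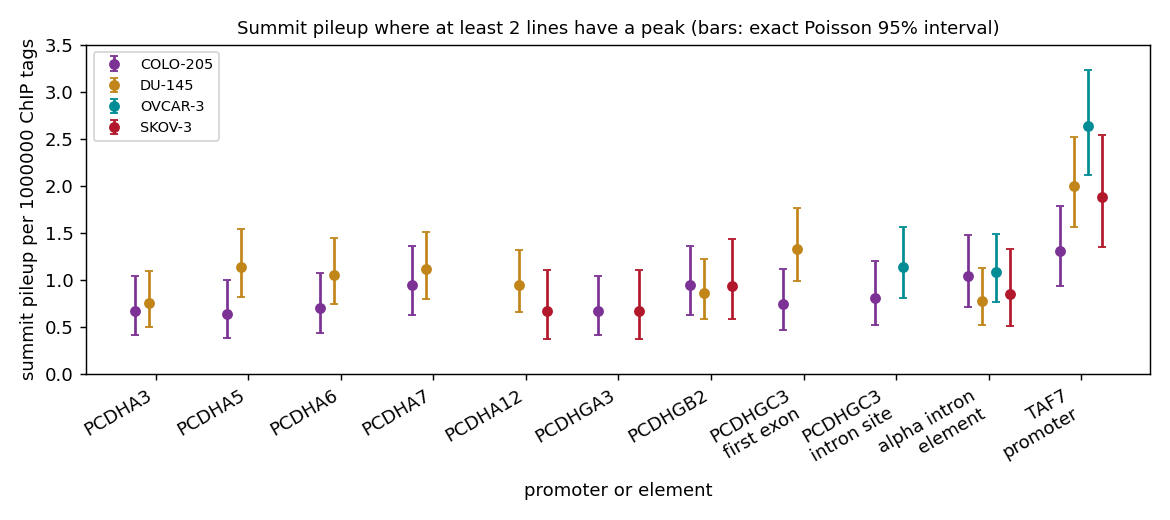
Tags at the peak summit per 1000000 ChIP tags (vertical axis) with exact Poisson 95% intervals, for member promoters with overlapping peaks in at least 2 lines (PCDHGC3 at both of its sites), for the alpha intron element and for the TAF7 promoter; a missing point means that no peak was listed, not a value of 0. The member promoters and the intron element lie between 0.637 and 1.33 with overlapping intervals at each site, and TAF7 reaches 2.63 in OVCAR-3. Overlap of intervals is no test of equal height.

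PCDHGC3 also counted as marked in 3 lines, but not at one site. DU-145 had a peak over its first exon (chr5:140855209-140856015, 4.17-fold, −log10 q 14.1, 48 tags), and COLO-205 a weaker one there (chr5:140855380-140855649, 3.42-fold, −log10 q 5.18, 22 tags). The single mark of OVCAR-3 was a peak at chr5:140888281-140888709 (5.92-fold, −log10 q 17.4, 39 tags) with its summit 32935 bases after the main start, in the intron between the second and the last gamma constant exon 831 bases past the start of a shorter PCDHGC3 transcript. COLO-205 had a peak at that site as well (3.95-fold, −log10 q 6.80, 24 tags). Per 1000000 tags the first exon gave 0.738 (0.463 to 1.12) in COLO-205 and 1.33 (0.982 to 1.77) in DU-145, and the intron site 0.805 (0.516 to 1.20) in COLO-205 and 1.14 (0.811 to 1.56) in OVCAR-3, with overlapping intervals at each site. With transcript starts limited to the basic protein-coding set, or with a window of 500 bp, OVCAR-3 had no marked member at all. PCDHGC5, the last gene of the gamma cluster and one of the 6 without the box, was marked in no line.

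In each line but OVCAR-3 the median marked member had a lower −log10 q, a smaller width and a higher fold than the median of all marked genes. The median −log10 q of the strongest promoter peak was 8.36 for members and 12.1 for all marked genes in COLO-205, 13.9 and 21.5 in DU-145, and 7.60 and 13.9 in SKOV-3. Above the median of all marked genes were 5 of 21 members in COLO-205, 3 of 14 in DU-145 and none of 3 in SKOV-3. Median widths were 300 against 395 bases, 425 against 753 and 231 against 358 in the same order. The median fold was 5.11 against 4.45 in COLO-205, 5.01 against 4.65 in DU-145 and 6.17 against 5.25 in SKOV-3. The single marked member of OVCAR-3, PCDHGC3 through its intron peak, lay below the medians of all marked genes in −log10 q (17.4 against 42.7), width (429 against 638 bases) and also fold (5.92 against 7.39).

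Most summits lay at the beginning of the variable exon, downstream of the box. PCDHGC3 in COLO-205 and OVCAR-3 is an exception, since its strongest peak lies in an intron near an alternative start, 866 and 831 bases past it, and it is counted below by these distances. Measured from the nearest transcript start, the summits had a median position of 264 bases downstream in COLO-205, 244 in DU-145 and 246 in SKOV-3, where the medians of all marked genes were 100, 78 and 85. Summits lay downstream in 20 of 21, 14 of 14 and 3 of 3 marked members, against 64.4%, 61.4% and 65.3% of all marked genes. The one summit before its start was that of PCDHGC4, by 4 bases. PCDHA7, with no box within 100 bases, had its summits 152 and 128 bases after the start in COLO-205 and DU-145. Coding sequence was overlapped by 22 of the 24 peaks at member promoters in COLO-205, 14 of 17 in DU-145 and 3 of 3 in SKOV-3. These positions fall in the part of the promoter region with the higher GC content given above, and the median GC content of the peaks at member promoters was 61.1% in COLO-205, 57.8% in DU-145 and 61.0% in SKOV-3, beside 58.8%, 52.0% and 62.0% for all peaks of chromosome 5. The part of base composition in the recovery of these fragments was not tested.

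**Figure D4:**
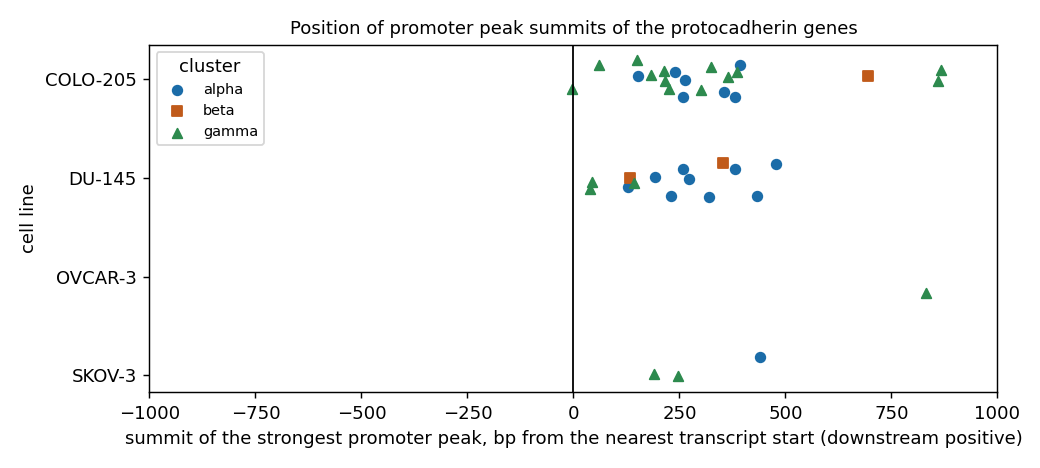
Distance in bases from the nearest transcript start to the summit of each marked member's strongest promoter peak (horizontal axis, downstream positive) in the 4 cell lines (vertical axis, with random vertical scatter), with marker shape and colour for the cluster. All points but that of PCDHGC4 in COLO-205, at −4, lie downstream, most of them between 100 and 500 bases.

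COLO-205 also had peaks farther along the variable exons. Of its 61 peaks in the region, 24 were at member promoters and another 13 lay on member exons beyond the promoter window, 12 of them over coding sequence. DU-145 had 2 such exon peaks, and OVCAR-3 and SKOV-3 none. The strongest exon peak was within PCDHGA10 in COLO-205 (chr5:140794405-140794677, 7.34-fold, −log10 q 17.3, 32 tags), a gene whose promoter was marked in no line. The exon peaks of COLO-205 had a median GC content of 66.4%, and those between genes 51.9%.

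Over the whole region of 800001 bases, the 61 peaks of COLO-205 covered 17709 bases, the 29 of DU-145 13431, the 9 of OVCAR-3 2671 and the 6 of SKOV-3 1635. That was 2.21% of the region in COLO-205 against 1.16% of chromosome 5, 1.68% against 1.44% in DU-145, 0.204% against 0.139% in SKOV-3 and 0.334% against 0.621% in OVCAR-3. The gamma cluster of COLO-205 was the most densely covered, with 30 peaks over 4.80% of its length, and the alpha cluster led in DU-145 with 12 peaks over 2.79%. The number of peaks per megabase on chromosome 5 was 1.36 and 1.33 times that of the median chromosome in COLO-205 and DU-145, and 0.580 and 0.769 times in OVCAR-3 and SKOV-3. The part of DNA copy number in this was not tested.

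**Figure D5:**
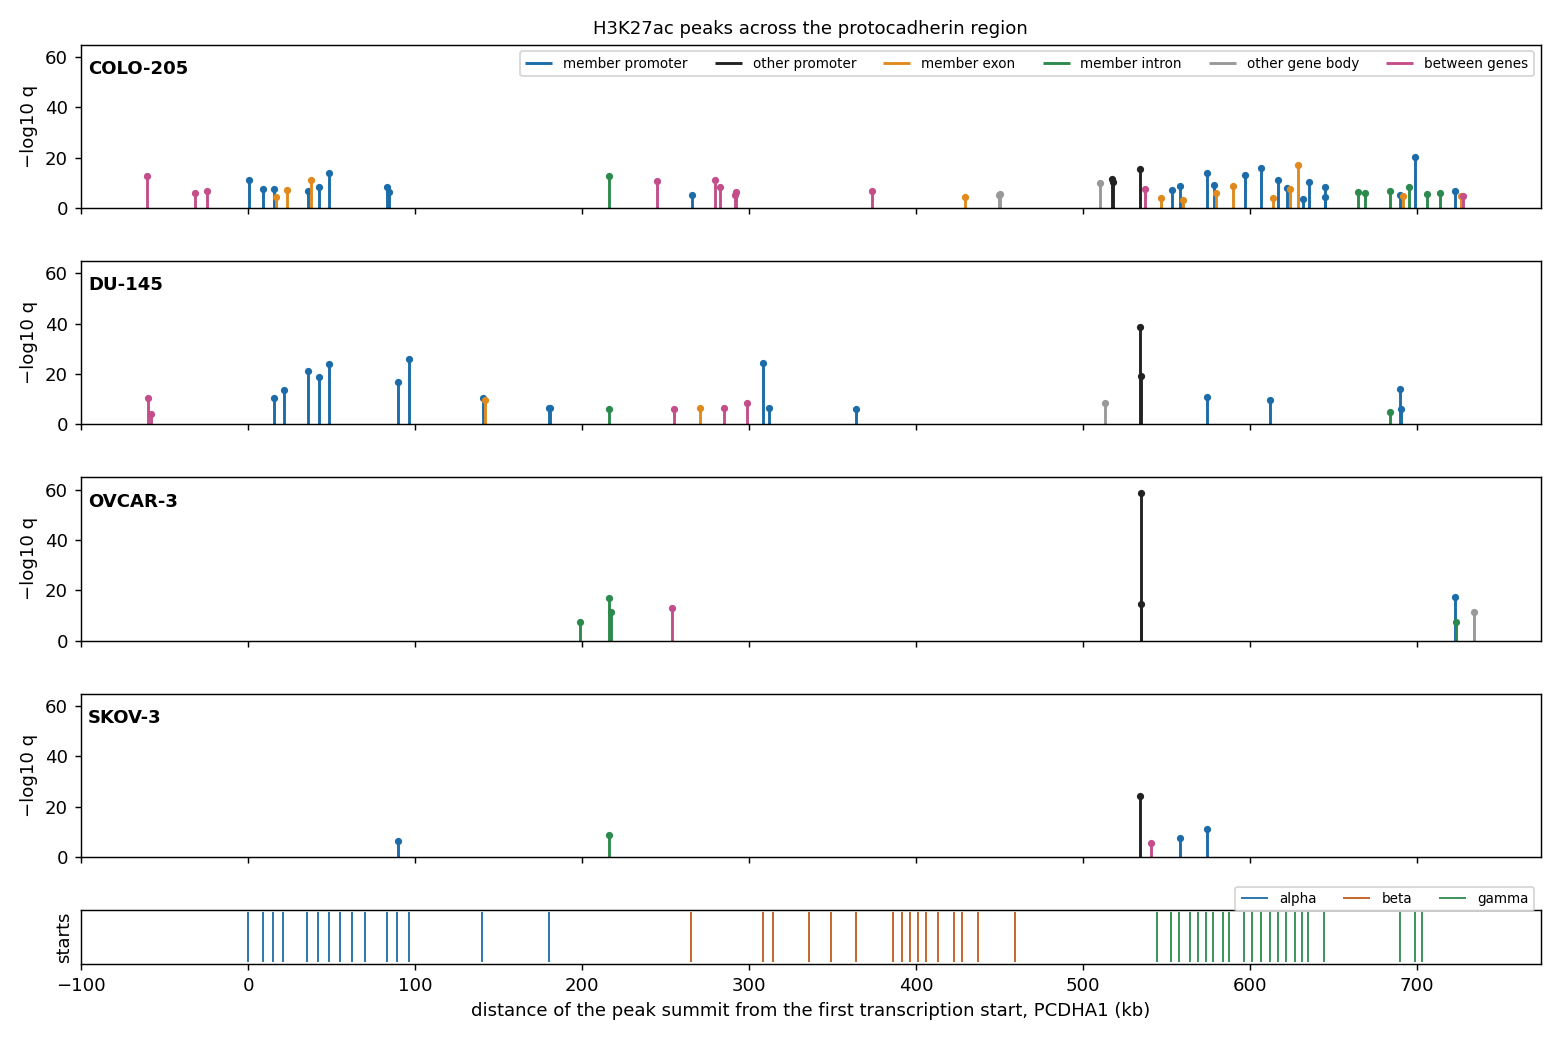
Peaks of each cell line across the region, by the distance of the summit from the first member start, that of PCDHA1 (horizontal axis, kb), with the −log10 q as height and the colour for the kind of site, and the main starts of the 53 members in the lowest strip. COLO-205 has the most peaks (61) at low −log10 q, DU-145 has tall alpha promoters, and OVCAR-3 has its tallest peak, −log10 q 58.7, at TAF7 and none in the beta cluster.

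Peaks of the 4 lines formed 86 overlapping groups in the region, of which 72 were found in 1 line, 11 in 2, 1 in 3 (PCDHGB2) and 2 in all 4. The share found in 1 line (83.7%) was near that of chromosome 5 (83.4%) and of all chromosomes (82.5%), so the region did not stand apart in this. One of the groups found in all 4 lines is the promoter of TAF7, a subunit of the general transcription factor TFIID, which lies between the beta and gamma clusters. The other is no promoter but an element in the alpha cluster, between the second constant exon (chr5:140362060-140362148) and the last (chr5:140389212-140391932), within the introns of all alpha genes. It was enriched 6.07-fold in OVCAR-3 (37 tags, −log10 q 17.0), 5.96-fold in SKOV-3 (19 tags, −log10 q 8.70), 5.45-fold in COLO-205 (31 tags, −log10 q 12.5) and 3.23-fold in DU-145 (28 tags, −log10 q 5.98). OVCAR-3 had no marked alpha promoter, SKOV-3 had 1, COLO-205 had 7 and DU-145 had 9. The −log10 q at the element neither rose nor fell steadily with that number. Per 1000000 tags the values were 1.08 (0.761 to 1.49), 0.848 (0.511 to 1.32), 1.04 (0.707 to 1.48) and 0.777 (0.516 to 1.12), in the same order, and all intervals overlapped. At TAF7 they did not, with 1.31 (0.931 to 1.79) in COLO-205 and 2.63 (2.12 to 3.23) in OVCAR-3.

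In mouse neurons, enhancers of the alpha cluster are known from the introns between the constant exons and from the stretch after the cluster. Whether the shared element corresponds to one of them was not tested. Its central 300 bases are printed because it is the only site of the clusters marked in every line (chr5:140381672-140381971, plus strand of GRCh37, intronic, all in lower case because neither CGCT nor CCCTC nor the CTCF core occurs on either strand).
Alpha intron element: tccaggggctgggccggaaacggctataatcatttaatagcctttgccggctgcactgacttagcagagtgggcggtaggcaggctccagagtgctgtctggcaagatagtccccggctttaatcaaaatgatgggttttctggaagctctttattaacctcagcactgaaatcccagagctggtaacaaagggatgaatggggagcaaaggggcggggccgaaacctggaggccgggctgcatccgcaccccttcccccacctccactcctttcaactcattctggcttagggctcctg
It has a GC content of 55.3%, 9 CpGs and an observed-to-expected CpG ratio of 0.392, so it does not meet the criteria of a CpG-rich sequence used for promoters.

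Outside promoters the lines otherwise differed. OVCAR-3 had a second intron peak close to the shared element (chr5:140382850-140383154, 6.36-fold, −log10 q 11.5) and a peak 27688 bases past the end of PCDHAC2 (chr5:140419620-140419843, 5.16-fold, −log10 q 13.0), in the gap between the alpha and beta clusters. DU-145 had a peak 28707 bases past that end which did not overlap it (chr5:140420639-140420886, 3.09-fold, −log10 q 6.11), and COLO-205 one 18770 bases past it (chr5:140410702-140410961, 5.39-fold, −log10 q 10.6). The strongest peaks of DU-145 outside promoters lay before the alpha cluster (chr5:140104755-140105710, 5.25-fold, −log10 q 10.3), where COLO-205 also had one (7.14-fold, −log10 q 12.8), in the first exon of PCDHAC1 (5.14-fold, −log10 q 9.69) and at chr5:140679062-140679309 in another gene (5.10-fold, −log10 q 8.61). SKOV-3 had 1 further peak, 3210 bases before PCDHGA1 (5.11-fold, −log10 q 5.65). The gamma constant exons themselves held 1 peak, in COLO-205, on the last of them (2.99-fold, −log10 q 4.85).

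Genes around and outside the clusters set these values in context. Of 32 other protein-coding genes with a start in the region or within 500 kb of it, DU-145 had promoter peaks at 26, OVCAR-3 at 24, COLO-205 at 23 and SKOV-3 at 13, and 12 were marked in all 4 lines. These are 81.2%, 75.0%, 71.9%, 40.6% and 37.5%, beside 59.8%, 60.5%, 51.1%, 31.6% and 25.2% of all genes. Some neighbours were marked by the same peak, such as HARS1 and HARS2 or IK and NDUFA2, so separate peaks were fewer than marked genes. The low count of OVCAR-3 in the clusters was thus not shared by the genes beside them. Among 12 non-clustered protocadherins, which are scattered single genes of the same superfamily, 6 were marked in COLO-205, 3 in SKOV-3, 2 in OVCAR-3 and 1 in DU-145, beside 51.1%, 31.6%, 60.5% and 59.8% of all genes in the same order, so that COLO-205 and SKOV-3 were near that share and the other lines below it. PCDH12, farther along the same chromosome, was the one marked in all lines, with 48 to 86 summit tags, but in each line the peak is the same one that marks the promoter of RNF14, so it cannot be assigned to PCDH12. The genes known to regulate the clusters, such as CTCF, the cohesin subunits, SMCHD1, SETDB1 and the DNA methyltransferases, were marked at 17 of 17 in COLO-205 and OVCAR-3, at 16 in DU-145 and at 15 in SKOV-3. Partners in adhesion and signalling, such as PTK2 and the WAVE complex genes NCKAP1 and ABI1, were marked at 12 of 13 in COLO-205 and OVCAR-3, at 11 in DU-145 and at 9 in SKOV-3.

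The members are close relatives in sequence, and how reads that match several places were treated is not given in the sources used here. Within the 1 kb either side of the main start, the share of 50-base words that recur elsewhere in the region had a median of 0.256% over all members, 4.92% in alpha and 0 in beta and gamma genes. The median was 0.615% in members marked in any line and 0 in those marked in none. The highest shares were 38.7% at PCDHB8 and PCDHB13 (unmarked), 32.4% at PCDHA7 (marked in 2 lines), 29.1% at PCDHA9 (unmarked) and 24.4% at PCDHGB4 (unmarked) and PCDHGB5 (marked in 1 line). The part of repeated sequence in the missing marks was not tested. Copies outside the region were not searched.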

How the data were processed

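Processed files were the authors' narrow peak lists of 4 libraries. Per the labels and methods, Bowtie2 2.1.0 aligned the reads to hg19, and MACS2 2.1.0.20150603 listed narrow peaks for each library at a q-value below 0.001. The deposited columns hold a score, a fold enrichment over local background (a ratio) and −log10 p and −log10 q values, none scaled between libraries. The stated merging of peaks less than 350 bp apart is not seen in the deposited lists, so merging was an alternative. Mutation data were not used here. The marker check of the prostate line is not reported here.

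Tag pileup and background at each summit were solved from the deposited fold and −log10 p, within 0.001, which was tested on simulated data, and ChIP tags from the lowest background with 2700000000 genome positions. At least 99.9% of peaks of each list were solved. GENCODE v44 lifted to GRCh37 gave transcript starts and exons, and sequence came from GRCh37. An overlap of 1 bp counted. Intervals are exact Poisson at 95%. With 1 library per line no test was made.

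Members with values are the C-type genes, those marked in at least 3 lines and the one with the highest −log10 q per line and cluster, with others chosen after their values were seen. Outside promoters these are the 3 strongest peaks per line, with some weaker peaks named beside them. The members and lists were chosen with earlier results of these data known. The words around the box, the 51 to 350 window, the repeated words and the comparison with promoters that are not CpG-rich were chosen after the data were seen. The software was pandas 2.3.3, scipy 1.17.1 and matplotlib 3.10.9 under Python 3.11.15.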

Additional observations from a re-analysis of the deposited data

How the results depend on the processing

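Of 56 alternative values of the main counts and sums, 39 stayed within 1.5 times the reported value and 17 did not. Requiring a −log10 q of at least 10 left 8 marked members in COLO-205 and 1 in SKOV-3, 1 member in at least 3 lines, while DU-145 kept 8387 covered bases, COLO-205 5723 and SKOV-3 611. With the same number of peaks in each list (14001), DU-145 had 5 marked members, COLO-205 2 and OVCAR-3 0, with 0 in at least 3 lines, and the covered bases were 3649, 1244 and 488 in that order. The 500 bp window and the basic protein-coding transcripts each gave 0 members in OVCAR-3 and 1 in at least 3 lines. Fewer peaks or starts enter by construction under each. A −log10 q of at least 5, merging, a 2 kb window and the summit in the window moved none of these values by more than 1.5 times. Of 88 alternative counts of lines per named member, 11 moved.

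No paired analysis was possible because each line has 1 library. The lists hold only sites past the threshold, so signal below it cannot be seen, and SKOV-3, with the fewest tags and peaks, is the most limited. No replicate separates a difference between lines from one between libraries.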
